A study of Rattus norvegicus with 5 samples.

Results

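The Toll-like receptors are a family of innate immune sensors, here taken as the 9 rows of the estimated count table named Tlr1 to Tlr9, of 17321 gene rows in all. Tlr1, Tlr2, Tlr4, Tlr5 and Tlr6 are the 5 receptors of the cell surface, and Tlr3, Tlr7, Tlr8 and Tlr9 are the 4 that signal from endosomes. All 9 had enough counts to be tested. Total RNA was sequenced from lumbar (L4 to L6) dorsal horn of Sprague Dawley rats on day 9 after surgery. The surgery was CCI for 3 libraries and SHAM for 2 libraries, in a series on neuropathic pain. In that field CCI usually stands for chronic constriction injury, loose ligatures around a peripheral nerve, though the labels do not spell it out. The labels give no age or sex and do not say whether a library is 1 animal or a pool, so a p-value here reflects only how much these libraries vary, which may be technical. The receptors were picked by name, but with CCI and SHAM values of these libraries already known, so the folds and calls below describe them within a fit of the whole table and are no independent evidence.

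Each receptor binds its ligand through leucine-rich repeats and signals through an intracellular TIR domain. The surface receptors sense bacterial lipoproteins (TLR2 paired with TLR1 or TLR6), lipopolysaccharide (TLR4) and flagellin (TLR5). The endosomal receptors sense double-stranded RNA (TLR3), single-stranded RNA (TLR7 and TLR8) and DNA with unmethylated CpG (TLR9). All but TLR3 signal through MyD88, and TLR3 and TLR4 use TRIF, towards NF-kB and interferon regulatory factors. In the spinal cord microglia are the main cells known to carry most of them, while TLR3 is also known from astrocytes and TLR5 from some sensory neurons.

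The promoter windows of 4 receptors are shown because Tlr7 and Tlr8, neighbouring genes on chromosome X, and Tlr2 were called higher after CCI and Tlr3 was not. Each runs from 250 bases before to 50 bases after the annotated start, 5′ to 3′ on the gene's strand, from RefSeq on GRCr8, a later build than the rn6 of the counts. They lie at chrX:30644176-30644475 (+), chrX:30708476-30708775 (+), chr2:171504508-171504807 (-) and chr16:53554666-53554965 (+), and all 9 receptors matched the RefSeq table by symbol. Capitals mark GAGGAA, a core motif of the myeloid factor PU.1, on either strand (TTCCTC where it is on the other strand).
Tlr7: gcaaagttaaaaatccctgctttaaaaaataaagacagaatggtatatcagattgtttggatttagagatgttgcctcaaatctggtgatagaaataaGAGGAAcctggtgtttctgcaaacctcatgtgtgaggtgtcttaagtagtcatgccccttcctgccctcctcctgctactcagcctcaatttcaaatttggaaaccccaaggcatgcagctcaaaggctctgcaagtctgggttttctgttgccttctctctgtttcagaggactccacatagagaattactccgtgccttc
Tlr8: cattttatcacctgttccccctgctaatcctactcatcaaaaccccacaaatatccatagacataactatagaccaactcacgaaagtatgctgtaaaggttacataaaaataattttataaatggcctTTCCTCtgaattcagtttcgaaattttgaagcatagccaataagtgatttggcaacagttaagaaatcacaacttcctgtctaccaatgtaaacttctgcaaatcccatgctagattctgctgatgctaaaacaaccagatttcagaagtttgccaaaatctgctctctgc
Tlr2: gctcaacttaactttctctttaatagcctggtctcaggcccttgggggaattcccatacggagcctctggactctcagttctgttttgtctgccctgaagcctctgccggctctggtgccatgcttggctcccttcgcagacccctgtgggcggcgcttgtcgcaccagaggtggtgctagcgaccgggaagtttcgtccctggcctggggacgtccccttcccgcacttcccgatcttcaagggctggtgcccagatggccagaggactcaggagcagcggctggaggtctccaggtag
Tlr3: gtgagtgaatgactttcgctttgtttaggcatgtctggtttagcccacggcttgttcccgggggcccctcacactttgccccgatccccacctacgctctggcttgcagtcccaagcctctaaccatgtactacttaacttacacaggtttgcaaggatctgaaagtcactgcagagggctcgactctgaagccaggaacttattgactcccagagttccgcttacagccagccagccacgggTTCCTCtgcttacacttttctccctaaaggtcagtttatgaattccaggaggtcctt
The motif GAGGAA was in 27.5% of all 27457 promoter windows of this length and in 6 of the 9 receptor windows, those of Tlr4, Tlr6, Tlr3, Tlr7, Tlr8 and Tlr9. Counted from the annotated start, with -1 the base before it, the match began at -152 in Tlr7, at -121 in Tlr8 and at -7 in Tlr3, and there was none in Tlr2. All motifs were searched on both strands. An NF-kB motif, GGG and CC with 5 free bases between, was in 48.5% of all windows and in those of Tlr2, where several matches overlap each other, and Tlr3. TGANTCA, an AP-1 motif, was in 7.33% of all windows and in that of Tlr9, and a motif of interferon regulatory factors, GAAA and GAAA with 2 free bases between, was in 3.77% and in no receptor window. A called receptor without the PU.1 letters (Tlr2) and an uncalled one with them (Tlr3) both occur, and a match is not a binding site.

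Libraries held 20053353 to 23673198 estimated counts. CCI 3 held 16.0% of its counts in ribosomal RNA rows, against 2.18% to 2.71% in the other 4 libraries. Dorsal horn neuron markers were present, with Slc17a6, a vesicular glutamate transporter gene, at 309 ± 28.5 CPM in CCI (SD, n = 3) and 305 ± 11.5 CPM in SHAM (SD, n = 2), where CPM is counts scaled to the size of the library. Of 10 tested motor neuron markers 5 were called lower, beside 0.26% of all 13478 tested genes. Among them was Slc5a7, the choline transporter gene, at 44.4 ± 12.5 CPM in CCI and 173 ± 63.3 CPM in SHAM. Schwann cell markers summed to 498, 641 and 990 CPM in CCI 1 to 3, beside 478 and 499 CPM in SHAM, and fibroblast markers to 222, 1018 and 873 CPM in CCI, beside 232 and 281 CPM in SHAM, so CCI 2 and CCI 3 stand apart in markers of tissue outside the cord. Receptor values are also given without these 2 libraries.

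Of the 9 receptors, 6 were called higher in CCI than in SHAM and 0 lower. In bulk tissue a different number of cells of a type and a different amount of RNA per cell cannot be told apart. Calls used the cut-offs of the series, a 1.5-fold difference with an adjusted p no larger than 0.05. By that rule 2.59% of 13478 tested genes were called higher and 0.26% lower, 2.85% in all. Called higher were Tlr1, Tlr2 and Tlr4 of the surface receptors and Tlr7, Tlr8 and Tlr9 of the endosomal receptors. None was lower by edgeR's quasi-likelihood test, the likelihood ratio test or DESeq2, and none was lower at an unadjusted p under 0.05. In all 9 rows every CCI library was above both SHAM libraries in CPM, as in 18.6% of all tested genes. Since the family was proposed with this comparison known, nothing is read from these shares. The calls rest on both SHAM libraries. Without SHAM 1 the quasi-likelihood test called 0 receptors, with 6 at an unadjusted p under 0.05 and 6 called by the likelihood ratio test and by DESeq2. Without SHAM 2 it called 1, Tlr2, with 6 at an unadjusted p under 0.05, 6 by the likelihood ratio test and 5 by DESeq2.

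**Figure D1:**
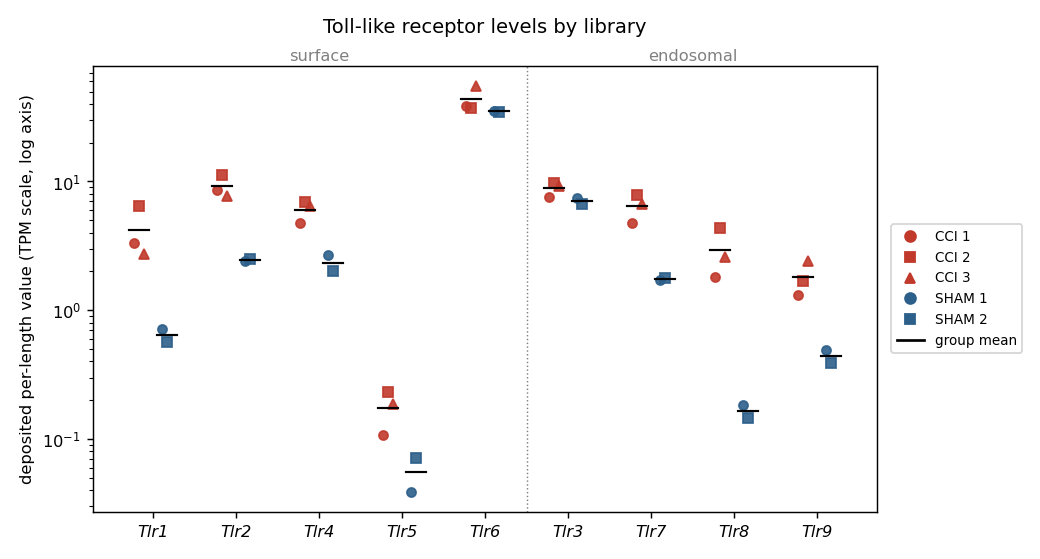
Deposited per-length values (TPM scale, log axis) of the 9 receptors in each library, with CCI libraries in red and SHAM libraries in blue, symbols for the replicate and black bars for group means. Tlr6 is the top row in all libraries at 34.9 to 55.2, Tlr5 the lowest at 0.039 to 0.231, and Tlr8 spans 1.81 to 4.35 in CCI against 0.146 and 0.183 in SHAM. The values of Tlr6 and Tlr1 are uncertain because of reads shared between rows.

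The levels of the receptors can be set against each other on the deposited per-length scale. In CCI the order of means was Tlr6 (43.6), Tlr2 (9.17), Tlr3 (8.83), Tlr7 (6.42), Tlr4 (6.03), Tlr1 (4.20), Tlr8 (2.92), Tlr9 (1.80) and Tlr5 (0.175), over 3 libraries. There every pair of neighbours from Tlr2 to Tlr9 overlapped, and Tlr6 and Tlr5 stood clear at the ends. In SHAM the order was Tlr6 (35.2), Tlr3 (7.10), Tlr2 (2.46), Tlr4 (2.34), Tlr7 (1.75), Tlr1 (0.643), Tlr9 (0.44), Tlr8 (0.1645) and Tlr5 (0.055), over 2 libraries. Of the neighbours in that order, Tlr2 and Tlr4 overlapped and the others did not. By mean, Tlr2 stood above Tlr3 in CCI and below it in SHAM, and Tlr8 stood above Tlr9 in CCI and below it in SHAM. The levels and ranks of Tlr6 and Tlr1 are uncertain, because some of their reads fit more than a single row.

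Among the surface receptors, Tlr2, the lipoprotein receptor, stood at 8.61, 11.1 and 7.75 on the per-length scale in CCI 1 to 3, against 2.42 and 2.50 in SHAM 1 and 2. The groups did not overlap, and the SHAM libraries were nearly equal. Its log2 fold change from counts was 1.87 (SE 0.19, 95% interval 1.43 to 2.31, adjusted p = 0.00146, edgeR's quasi-likelihood test, as for all adjusted p-values unless named). This call held in 17 of 18 alternatives, the most of the 9 receptors, and was lost without SHAM 1 (adjusted p = 0.0508, with a range over the alternatives of 3.56e-13 to 0.0508). Tlr4, the lipopolysaccharide receptor, stood at 4.72, 6.91 and 6.44 in CCI and 2.68 and 2.01 in SHAM on the per-length scale, with CCI 1 the lowest of its group and no overlap between groups. Its log2 fold change was 1.33 (SE 0.21, 95% interval 0.85 to 1.81, adjusted p = 0.0109), and 0.98 with CCI 2 and CCI 3 left out.

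Tlr1 and Tlr6 encode the alternative partners of TLR2 and are neighbouring genes on chromosome 14, followed by Tlr10. They are the only receptors of the 9 with fractional estimated counts, which arise where reads fit more than 1 row, and both are uncertain. Tlr1 had 145, 325 and 103 estimated counts in CCI 1 to 3 against 32.1 and 23.05 in SHAM, so CCI 2 was far above the other CCI libraries and all CCI libraries were above SHAM. Tlr6 had 1862, 2056 and 2292 estimated counts in CCI and 1757 and 1576 in SHAM, so its row held most of the counts of the pair. The log2 fold change was 2.68 for Tlr1 (SE 0.44, 95% interval 1.66 to 3.70, adjusted p = 0.0193) and 0.28 for Tlr6 (SE 0.17, 95% interval -0.12 to 0.68, adjusted p = 0.464). The Tlr6 interval lies below that of Tlr1, but neither interval carries the uncertainty from shared reads. With the counts of Tlr1 and Tlr6 summed to 1 row the log2 fold change was 0.38 (SE 0.15, adjusted p = 0.256) and no call was made, where the alternatives for Tlr1 ran from an adjusted p of 1.33e-07 to 0.262. The summed row is mostly Tlr6. The estimated counts of the pair do not add to a whole number, as with 144.954 and 1861.71 in CCI 1. Some reads are then shared with rows outside the pair, so the sum cannot settle the fold of Tlr1. Which row the shared reads belong to was not tested. In CPM, Tlr6 was 122 in CCI 3 against 86.2 and 81.6 in CCI 1 and CCI 2, and SHAM stood at 79.9 and 78.8. Without CCI 3 its log2 fold change was 0.08.

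Tlr5, the flagellin receptor, was near the limit of detection, with 8, 20 and 12 counts in CCI and 3 and 5 in SHAM. Its log2 fold change was 1.63 (SE 0.60, 95% interval 0.27 to 2.99) and was not called (adjusted p = 0.222). Rows for Tlr10, Tlr11 and Tlr12, looked at because they complete the family's rows in the table, had at most 15 counts in any library and were at or below 3 counts in SHAM.

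**Figure D2:**
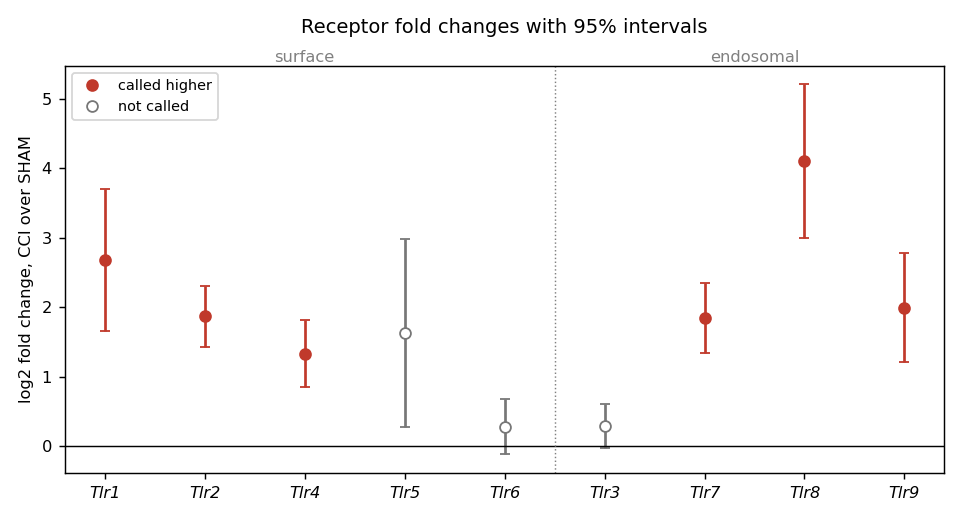
Log2 fold change of CCI over SHAM from the counts for each receptor, with its 95% interval (vertical axis), surface receptors on the left and endosomal receptors on the right. Filled red points were called higher, Tlr8 is the highest at 4.11, and the intervals of Tlr6 and Tlr3 include 0.

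Among the endosomal receptors, Tlr8, a sensor of single-stranded RNA, had the largest fold of the family. It had 106, 294 and 131 counts in CCI 1 to 3 against 11 and 8 counts in SHAM, and stood at 1.81, 4.35 and 2.60 on the per-length scale in CCI against 0.183 and 0.146 in SHAM. CCI 2 was the highest library, and the groups were far apart. The log2 fold change was 4.11 (SE 0.48, 95% interval 2.997 to 5.21, adjusted p = 0.00357), and its lowest value over the alternatives was 2.30, from the deposited values with a pseudocount of 0.5, which understates the change of low genes. Tlr7, its neighbour and the other single-stranded RNA sensor, stood at 4.77, 7.84 and 6.64 in CCI and at 1.73 and 1.77 in SHAM on the per-length scale, so the SHAM libraries were nearly equal and far below CCI. Its log2 fold change was 1.84 (SE 0.22, 95% interval 1.34 to 2.35, adjusted p = 0.00279), an interval that does not overlap that of Tlr8. The per-length level of Tlr7 was 2.64, 1.80 and 2.56 times that of Tlr8 in CCI 1 to 3 and 9.46 and 12.1 times in SHAM 1 and 2, with no overlap between the groups.

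Tlr9, the sensor of CpG DNA, had 75, 112 and 120 counts in CCI and 29 and 21 in SHAM. Unlike Tlr1, Tlr2, Tlr4, Tlr7 and Tlr8, whose highest CPM was in CCI 2, it was highest in CCI 3, at 6.36 CPM against 3.47 and 4.45 CPM in CCI 1 and CCI 2. Its log2 fold change was 1.996 (SE 0.35, 95% interval 1.21 to 2.78, adjusted p = 0.0168). Tlr3, the sensor of double-stranded RNA, stood at 7.57, 9.68 and 9.23 on the per-length scale in CCI and at 7.504 and 6.70 in SHAM. CCI 1 was barely above SHAM 1, and the groups were otherwise close. The log2 fold change was 0.29 (SE 0.14, 95% interval -0.03 to 0.61, adjusted p = 0.363), and no alternative called it.

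The surface and endosomal classes each had 3 called receptors. Of 5 surface receptors 3 were called higher, with a median log2 fold change of 1.63, which is the value of the uncalled, sparsely counted Tlr5, and a range of 0.28 to 2.68. Of 4 endosomal receptors 3 were called higher, with a median of 1.92 and a range of 0.29 to 4.11, beside a median of 0.01 over all tested genes. In each class the receptor with the highest SHAM level, Tlr6 and Tlr3, was not called. The receptors share libraries and are not replicates, so the class difference was not tested. On the per-length scale the endosomal sum was 15.45, 23.6 and 20.9 in CCI 1 to 3, against 9.91 and 9.005 in SHAM. Without Tlr3 it was 7.88, 13.9 and 11.7 in CCI against 2.405 and 2.31 in SHAM, so Tlr3 made up 41.1% to 49.0% of the endosomal sum in CCI and 74.4% to 75.7% in SHAM. The surface sum was 55.4, 61.8 and 72.4 in CCI against 41.4 and 40.02 in SHAM, and without Tlr6 it was 16.8, 24.8 and 17.1 in CCI against 5.86 and 5.14 in SHAM. Leaving out Tlr6, the endosomal receptors made up 47.9% to 55.0% of the receptor sum in CCI and 62.8% to 63.7% in SHAM. Without SHAM 1 the quasi-likelihood test called 0 receptors of either class, and without SHAM 2 it called 1 surface and 0 endosomal receptors. In both cases 3 receptors of each class were at an unadjusted p under 0.05 and 3 of each were called by the likelihood ratio test. DESeq2 called 3 surface receptors in both cases, with 3 endosomal receptors without SHAM 1 and 2 without SHAM 2.

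**Figure D3:**
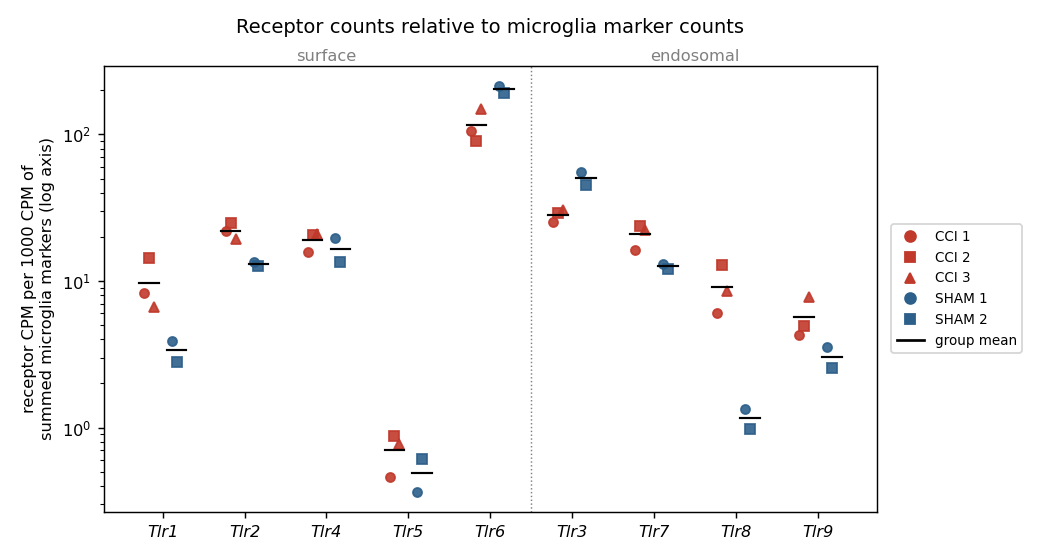
Receptor CPM divided by the summed CPM of the microglia markers, times 1000 (log axis), in each library, with CCI in red, SHAM in blue and black bars for group means. Tlr8 is at 6.04 to 12.9 in CCI above 0.972 and 1.34 in SHAM, while Tlr3 and Tlr6 are lower in CCI than in SHAM.

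Markers of microglia moved with the receptors. Of 13 tested microglia markers 8 were called higher, with a median log2 fold change of 0.997, and their summed level was 812 to 904 CPM in CCI and 373 to 411 CPM in SHAM. Csf1r, the receptor that microglia need for survival, was at 323 ± 26.7 CPM in CCI (SD, n = 3) and 103 ± 11.1 CPM in SHAM (SD, n = 2). Per 1000 CPM of these markers, Tlr8 was at 6.04, 12.9 and 8.49 in CCI 1 to 3 and at 1.34 and 0.972 in SHAM. Tlr1, Tlr2, Tlr7 and Tlr9 were also above SHAM in every CCI library on that ratio, with log2 ratios of the group means of 1.54, 0.76, 0.73 and 0.90, against 2.98 for Tlr8. Tlr4 and Tlr5 overlapped between the groups. Tlr3 was at 25.4, 28.9 and 30.3 in CCI and at 55.3 and 45.0 in SHAM, and Tlr6 at 106, 90.3 and 149 in CCI and at 214 and 192 in SHAM, so both were below SHAM in every CCI library. These ratios reuse the same libraries and carry no test.

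Markers of other immune cells were lower in level. Border macrophage markers summed to 25.8, 61.7 and 67.6 CPM in CCI 1 to 3, beside 28.03 and 31.6 CPM in SHAM, so CCI 1 was below both SHAM libraries. In that list 1 of 7 tested genes, Folr2, was called higher (named after its values were seen), and Lyve1 and Mrc1, its most abundant, were not called (log2 fold changes -0.10 and 1.66). Neutrophil and monocyte markers summed to 20.5 to 26.7 CPM in CCI and 6.61 to 7.71 CPM in SHAM, mostly Csf3r, the G-CSF receptor gene, at 14.6 to 17.7 CPM in CCI and 3.60 to 3.86 CPM in SHAM. The neutrophil genes Elane and S100a8 were at 0 in SHAM and at most 0.053 and 0.212 CPM in CCI, and only 2 of the 12 rows of that list had enough counts to be tested. T and B cell markers summed to 5.23, 20.6 and 8.27 CPM in CCI, beside 5.05 and 4.95 CPM in SHAM, so CCI 2 was the highest. The T cell gene Cd3e stood at 2.22 CPM in CCI 2 and 0.477 CPM in CCI 3, and was at 0 in CCI 1 and in both SHAM libraries. Astrocyte markers summed to 9053 to 11430 CPM in CCI and 7982 to 7994 CPM in SHAM. Of the 10 tested, 1 was called higher, Gfap, the astrocyte filament gene, at 4191 ± 831 CPM in CCI and 2041 ± 83.95 CPM in SHAM, and the median log2 fold change of the list was 0.06. Without Gfap the sum was 6320, 5632 and 5560 CPM in CCI 1 to 3, with SHAM at 5882 and 6012 CPM, so the groups overlapped. Aqp4, the water channel gene, had a log2 fold change of 0.29 and was not called, and 3 markers were below SHAM in every CCI library. The part of any of these cells in the receptor values was not tested. Leaving out CCI 2 and CCI 3, so that CCI 1 is a lone library assumed to vary as SHAM does, gave calls for the same 6 receptors, with a log2 fold change of 3.41 for Tlr8, 1.78 for Tlr2 and 1.42 for Tlr7. With the mean level of the Schwann cell markers as a covariate 3 were called, Tlr2, Tlr7 and Tlr8, and the surface median was 1.14. The uncalled Tlr1, Tlr4 and Tlr9 had log2 fold changes of 2.68, 1.14 and 1.57 in that fit (adjusted p = 0.145, 0.12 and 0.135), where calls higher over all genes numbered 166, against 349 without the covariate.

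**Figure D4:**
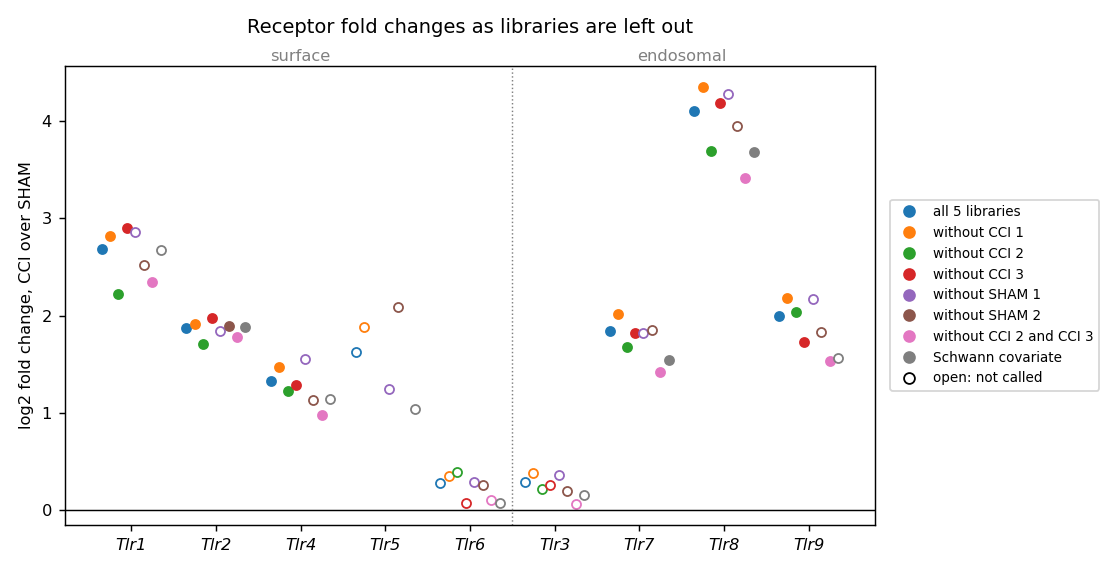
Log2 fold change of CCI over SHAM (vertical axis) of each receptor with all 5 libraries, with each library left out, without CCI 2 and CCI 3, and with a Schwann cell covariate. Filled points were called higher and open points were not: Tlr8 ran from 3.41 to 4.35 here, and no point lies below 0. Tlr5 has no point where its counts fell under the filter.

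Around the receptors, the pathway lists held 21 distinct called genes in 6 lists, and no list had a call in the lower direction by the quasi-likelihood test, the likelihood ratio test or DESeq2 (1 gene of the adaptor list was lower at an unadjusted p under 0.05). Over all 13478 tested genes 2.59% were called higher and 0.26% lower. The lists were written by hand with earlier results of these data known, so nothing is read from their counts of calls. Of 19 co-receptor and trafficking genes 5 were called higher, with a median log2 fold change of 0.54, beside the 0.01 of all tested genes. They were Unc93b1, the chaperone that brings endosomal receptors to their compartment, at 40.8, 58.2 and 46.03 CPM in CCI 1 to 3, beside 13.3 and 15.04 CPM in SHAM (log2 fold change 1.77, SE 0.17, adjusted p = 0.00127), Cd180, a receptor homologue that lacks a TIR domain (1.92), its partner Ly86 (2.30), Ctss, a lysosomal protease that can cleave endosomal receptors (0.96), and Slc15a3, an endolysosomal transporter (0.94), the last named after its values were seen. The TLR4 partners Cd14 and Ly96, named after their values were seen, were not called, with Cd14 at 10.8 CPM in CCI and 7.44 CPM in SHAM and Ly96 at 1.66 CPM in CCI and 0.9201 CPM in SHAM. Without SHAM 1 the list had 0 calls by the quasi-likelihood test, 7 genes at an unadjusted p under 0.05 and 4 calls by the likelihood ratio test and by DESeq2, and it had 1 without SHAM 2 and 8 without CCI 1.

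Of 19 adaptor and proximal kinase genes 3 were called higher, with a median log2 fold change of 0.21. Myd88, the adaptor of all but TLR3, was at 12.5 ± 0.443 CPM in CCI (SD, n = 3) and 5.51 ± 1.18 CPM in SHAM (SD, n = 2) (log2 fold change 1.19, SE 0.18, adjusted p = 0.00967). The CCI libraries were close to each other and all above SHAM. Pik3ap1, a phosphoinositide 3-kinase adaptor, rose by 1.57, and Btk, a tyrosine kinase of myeloid and B cells, by 1.71. Of the rest, Irak1, Traf6 and Tbk1 (named after their values were seen) had log2 fold changes of -0.02, 0.25 and -0.07. Without SHAM 1, and without SHAM 2, 1 gene of this list was called.

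Of 13 transcription factor genes 4 were called higher, with a median of 0.71. Spi1, which encodes PU.1, was at 12.6, 12.3 and 10.9 CPM in CCI 1 to 3, against 3.27 and 3.75 CPM in SHAM, with no overlap (log2 fold change 1.76, SE 0.18, adjusted p = 0.00146). Irf8, a factor of myeloid cells, rose by 2.47, Irf5, which acts below MyD88, by 1.33, and Cebpb by 0.71. The Cebpb row has fractional counts and was close to the cut-off (adjusted p = 0.0462). Its call was lost in 12 alternatives and kept in 6. The NF-kB genes Nfkb1, Rela and Nfkb2 (named after their values were seen) were not called, at 0.30, 0.35 and 0.64. Each was above SHAM in every CCI library, as were 18.6% of all tested genes. Of 17 negative regulators 4 were called higher, with a median of 0.26. Ptpn6 (2.05) and Inpp5d (1.39) encode the phosphatases SHP-1 and SHIP-1. The others were Socs3 (2.42), a feedback inhibitor of cytokine signalling, and Nfkbiz (1.44), an NF-kB cofactor. Without SHAM 1 and without SHAM 2, 1 and 1 transcription factor genes and 1 and 1 negative regulators were called.

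**Figure D5:**
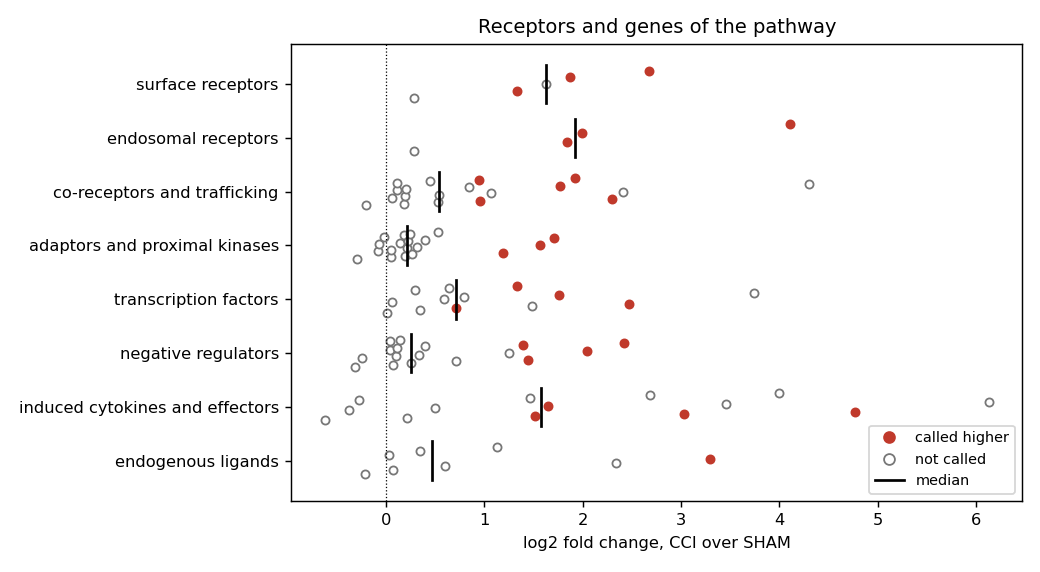
Log2 fold change of CCI over SHAM (horizontal axis) of every tested gene of the receptor classes and pathway lists (rows), filled red where called higher, with black bars at the medians. The receptor classes have medians of 1.63 and 1.92, and the adaptor list 0.21.

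Among 25 cytokine and effector rows, only 14 had enough counts to be tested and 4 were called higher, so the median of 1.58 covers those that passed. Lcn2, which encodes a protein that binds iron-carrying siderophores, was at 7.21 ± 0.589 CPM in CCI (SD, n = 3) and 0.875 ± 0.177 CPM in SHAM (SD, n = 2) (log2 fold change 3.03, SE 0.26, adjusted p = 0.000647). The chemokine gene Cxcl16 rose by 1.65 and the adhesion gene Icam1 by 1.51. The chemokine gene Ccl7 was called on few counts, at 0.556 to 1.06 CPM in CCI, beside 0.0455 and 0 CPM in SHAM. Not all of the other products were low or variable (those named here were chosen after their values were seen). Il1rn was at 14.8 ± 0.541 CPM in CCI and 12.7 ± 0.141 CPM in SHAM. Il18 was at 6.53 ± 0.145 CPM in CCI and 4.62 ± 0.746 CPM in SHAM, and neither gene was called. Tnf was at 0.498 ± 0.368 CPM in CCI and 0.629 ± 0.311 CPM in SHAM and overlapped, and Ifnb1 and Il6 did not have enough counts to be tested. Il1b, Ccl2, Cxcl10 and Ptgs2 were above SHAM in every CCI library but were not called, with log2 fold changes of 2.68, 3.46, 4.00 and 1.47 (adjusted p = 0.109, 0.0844, 0.252 and 0.142). Ccl2 stood at 2.71 ± 1.57 CPM in CCI and 0.248 ± 0.286 CPM in SHAM, and Cxcl10 at 0.972, 5.32 and 0.636 CPM in CCI 1 to 3, highest in CCI 2, with SHAM at 0.227 and 0.04997 CPM. Of this list, 9 genes were called with DESeq2 and 9 with the likelihood ratio test. Of 8 tested genes of endogenous ligands, proteins reported to engage these receptors, 1 was called higher, Lgals3, which encodes galectin-3, at 40.9, 19.7 and 32.6 CPM in CCI 1 to 3 and 3.15 ± 0.496 CPM in SHAM (SD, n = 2) (log2 fold change 3.29, SE 0.36, adjusted p = 0.00607). Hmgb1 (named after its values were seen) had a log2 fold change of 0.03. Without SHAM 1, and without SHAM 2, the quasi-likelihood test called 1 gene of the cytokine list and 0 of the ligand list, where 1 ligand gene was higher at an unadjusted p under 0.05 and 1 was called by the likelihood ratio test and by DESeq2.

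The genes most like the receptor with the most counts in each class, Tlr6 and Tlr3, were found by the root mean square difference of log2(CPM + 0.5), each gene centred on its mean, over 5 libraries and 12752 genes with a mean of at least 1 CPM. For Tlr6 they were Spry4 (0.0127), Lrrn4cl (0.0145), Prrc2c (0.0167), Foxj2 (0.0183) and Sec24a (0.0192), all highest in CCI 3. For Tlr3 they were Smad3 (0.0294), Brca2 (0.0311), Tspan4 (0.0348), Drp2 (0.0355) and Smim3 (0.0383), all higher in CCI 2 and CCI 3 than in CCI 1. Drp2 is also one of the Schwann cell markers listed.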

How the data were processed

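The treatment label gave the groups (3 CCI, 2 SHAM); replicates were numbered in accession order, which pairs none of them. Estimated counts for each gene symbol were deposited, from kallisto 0.44.0 and the rn6 build per the submitters' processing notes; their annotation is not given in the sources used here. The authors scaled a second deposited table of per-length signal values, named TPM, between libraries by trimmed mean of M-values per the series' design text. Its column totals vary, and over 10540 well-counted genes the ratio of value to count had a median variation of 0.231% between libraries within a gene, and ran between genes from 0.354 to 3.48 times its median (5th to 95th percentile). No 2 libraries agreed within sampling noise (chi-square per degree of freedom at least 19.3).

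Counts were rounded to whole numbers; edgeR 4.0.16 in R 4.3.3 then tested the 13478 genes that passed filterByExpr with a minimum count of 10 (TMM, glmQLFit robust, glmQLFTest, two-sided, 3 residual degrees of freedom), with Benjamini-Hochberg adjustment over all of them. Levels in CPM use the TMM-scaled totals, and SE is the log2 fold change over the root of F. Intervals are at 95%. Also tried were DESeq2 1.42.0, edgeR's likelihood ratio test, limma 3.58.1 (voom, and the deposited values with pseudocounts of 0.5 and 0.1), other scalings and filters, libraries left out, a Schwann cell covariate and summed Tlr1 and Tlr6. Scripts were tested on simulated counts. The receptors, lists, thresholds and alternatives were chosen with earlier results of these data known. Named genes are the 9 receptors, up to 4 called members of each pathway list by p, the 2 most abundant markers of each list (given where they bear on a receptor value; some are not reported here) and the 5 nearest patterns of Tlr6 and Tlr3; exceptions are said to be named after their values were seen, and some defining genes of other immune cells are also given. Promoters are from RefSeq (GRCr8). Figures used matplotlib 3.10.9.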

Additional observations from a re-analysis of the deposited data

How the results depend on the processing

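No receptor changed direction in any alternative. Over the alternatives the log2 fold change ran from 2.30 to 4.35 for Tlr8, 1.69 to 1.98 for Tlr2, 1.42 to 2.02 for Tlr7, 1.27 to 2.18 for Tlr9, 0.98 to 1.55 for Tlr4 and 0.38 to 2.90 for Tlr1. The 0.38 is that of Tlr1 and Tlr6 summed, a row that is mostly Tlr6. Called in how many of them: Tlr2 in 17 of 18, Tlr7 and Tlr8 in 16 of 18, Tlr4 in 14 of 18, Tlr9 in 12 of 18 and Tlr1 in 13 of 19, and Tlr3, Tlr5 and Tlr6 in none. Tlr5 had a value in 12 settings, since the filters removed it in the others. The call count of the family was 6 of 9, and 3 with the deposited values without a filter and with the Schwann cell covariate, where Tlr1, Tlr4 and Tlr9 lost the call at log2 fold changes of 1.96, 1.19 and 1.27 with the deposited values and 2.68, 1.14 and 1.57 with the covariate. In these 2 settings 1 surface receptor and 3 co-receptor genes were called, the surface median was 1.19 and 1.14, and 1 adaptor gene was called with the covariate. The endosomal median was 1.43 with the deposited values at a pseudocount of 0.5, with or without a filter, and 1.47 without CCI 2 and CCI 3, where the surface median was 1.38; the cause was not tested. Of the cytokine and effector genes, 9 were called with DESeq2 and 9 with the likelihood ratio test, rather than 4.

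With 1 library left out at a time the counts ran from 0 to 6 receptors, 0 to 3 surface, 0 to 3 endosomal, 0 to 8 co-receptor, 1 to 3 adaptor, 1 to 6 transcription factor, 1 to 5 negative regulator, 1 to 6 cytokine and 0 to 4 ligand genes, and the medians from 1.47 to 1.89 (surface) and 1.78 to 2.10 (endosomal). Over all genes 349 were called higher and 35 lower in all 5 libraries by the quasi-likelihood test, against 545 and 69 with DESeq2, 571 and 75 with the likelihood ratio test, 212 and 15 with the deposited values without a filter, 289 and 21 and 309 and 19 with their pseudocounts of 0.5 and 0.1, 166 and 1 with the Schwann cell covariate, 644 and 119 without CCI 1, 291 and 19 without CCI 3, 61 and 0 without SHAM 1 (where 433 were lower at an unadjusted p under 0.05, 23 by the likelihood ratio test and 23 by DESeq2) and 73 and 5 without SHAM 2. By CPM in place of the per-length values, 7 of 9 receptors kept their rank in CCI and 7 of 9 in SHAM. Tlr5, and Tlr8 in SHAM, rest on at most 20 counts a library, which limits their folds. No paired analysis was possible because the labels give the groups no shared replicate numbers.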
